A study of Oryctolagus cuniculus with 6 samples.

Results

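Transcripts of 8 apoptosis genes were examined in rabbit tracheal mucosa: the effectors BAX and BAK1, the BH3-only genes BBC3, PMAIP1, BCL2L11 and BID, the death receptor FAS and the initiator caspase CASP8. They were chosen by name, from their known roles in apoptosis, with earlier results of these data known. Each had 1 row among the 29587 genes of the deposited count table, and 6 of the 8 carried enough reads to be tested. The high cuff pressure group held 3 libraries from New Zealand rabbits aged 3 months, in which a 3.0 mm tube was placed 13 cm deep and its cuff kept at 35 cmH2O for 2 h to injure the mucosa. The control group held 3 libraries from rabbits of that age. The labels give the age but no genotype, do not say how control animals were handled, and do not say when tissue was taken. Each library is treated as 1 animal because the study states n = 3 per group. The p-values set a group difference only against the spread between these libraries, an estimate that draws on all tested genes.

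In the mitochondrial pathway of apoptosis, BAX and BAK1 form pores in the outer mitochondrial membrane and release cytochrome c, which leads to caspase activation. Pro-survival proteins such as BCL2, BCL2L1 and MCL1 hold the effectors in check, and BH3-only proteins relieve that restraint or activate the effectors directly. In the death receptor pathway, ligand-bound FAS recruits CASP8, which can cut BID and so engage the mitochondria. Much of this control acts on proteins, by cleavage and binding, and is not seen in transcript levels.

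Library totals lay between 10501734 and 14415754 counts. Mitochondrial genes took 27.8% to 30.5% of counts with high cuff pressure and 5.28% to 11.5% in controls. For this reason levels are given as CPM, a count scaled to library size, after TMM normalisation, which adjusts each library by its typical gene, and comparisons between genes use FPKM, which also divides by gene length. Scaling by total counts alone moved the median log2 fold change of all genes from -0.01 to -0.40. The labels name epithelial cells, but their protocol names mucosa. The 7 airway epithelial markers with a row summed to 1999 to 4074 CPM with high cuff pressure and 1546 to 1618 CPM in controls. KRT5 alone had 387, 945 and 2374 CPM with high cuff pressure, against 327, 259 and 124 CPM in controls. Of the 7, 4 had a positive log2 fold change, with TP63 at 0.03, while EPCAM, FOXJ1 and CDH1 had -0.34, -0.13 and -0.11. The 5 smooth muscle markers summed to 272 to 3881 CPM with high cuff pressure and 3059 to 5910 CPM in controls.

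Among the 8 genes, BAK1 was higher with high cuff pressure. BAX was higher by a smaller amount that did not pass the test over all genes. BCL2L11, BID, FAS and CASP8 had overlapping groups, and BBC3 and PMAIP1 were near the limit of detection. A gene was called when its p from the quasi-likelihood test of edgeR, adjusted by Benjamini-Hochberg over the 13724 genes tested, was under 0.05. Of the 6 tested genes, 1 was called higher and 0 lower, where 3.67% of all tested genes were called higher and 1.62% lower. The groups did not overlap for 2 of the 6, both higher, while 37.3% of all tested genes were separated, 18.6% upward and 18.7% downward. The median log2 fold change of the 6 was 0.27, beside -0.01 over all tested genes, and with total counts only the pair was -0.13 and -0.40. In a bulk sample, more cells that express a gene cannot be told apart from more RNA per cell.

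**Figure D1:**
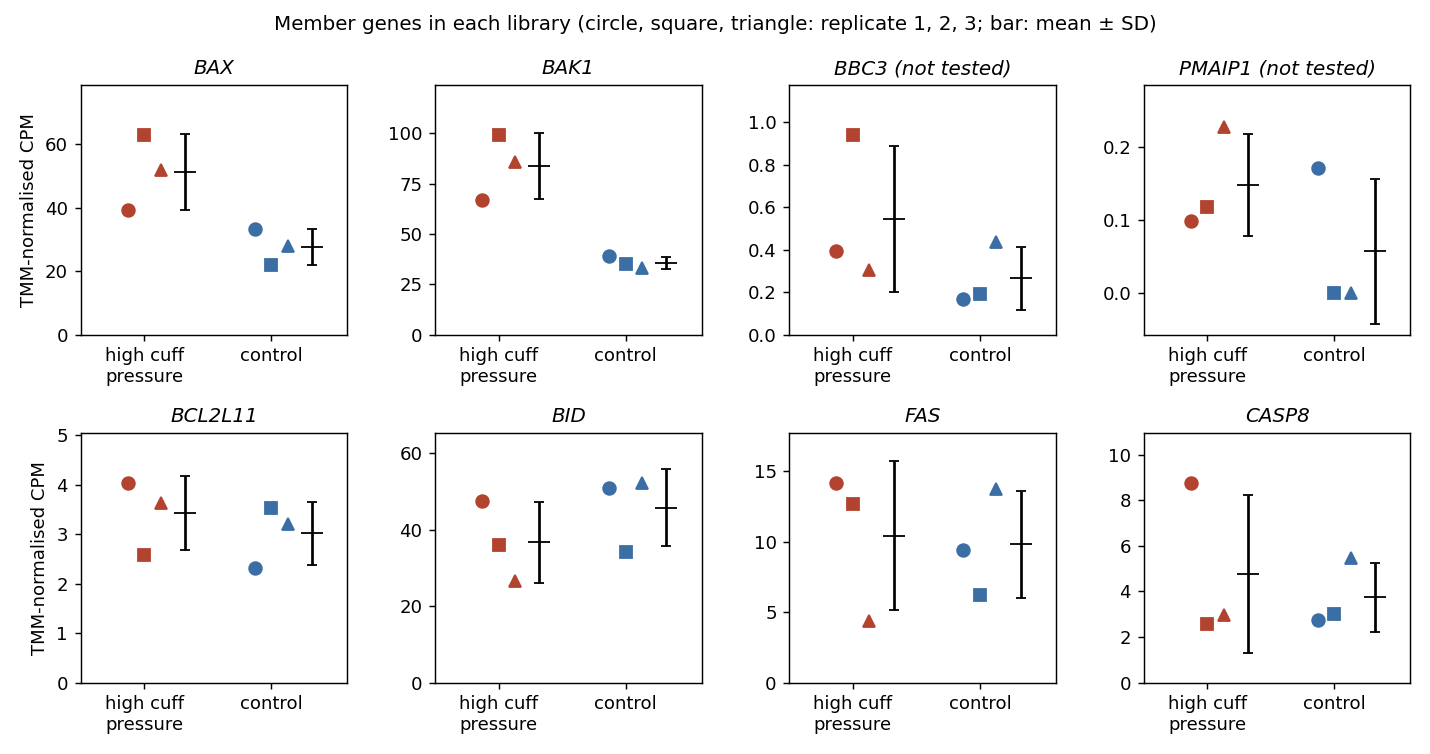
Each panel plots 1 gene, with TMM-normalised CPM on a linear axis, the 3 high cuff pressure libraries in red on the left and the 3 control libraries in blue on the right; bars give the mean ± SD. BAK1 and BAX are separated between groups, while the other 6 genes overlap.

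BAK1, an effector that resides in the mitochondrial membrane, had 66.7, 99.2 and 85.9 CPM in high cuff pressure replicates 1, 2 and 3, against 39.1, 34.9 and 32.9 CPM in control replicates 1, 2 and 3. Every high cuff pressure library lay above every control, and the controls were close together. BAK1 averaged 84.0 ± 16.3 CPM with high cuff pressure and 35.7 ± 3.16 CPM in controls (SD, n = 3 each), a fold of 2.35 and a log2 fold change of 1.23 ± 0.23 SE (95% interval 0.72 to 1.75; edgeR adjusted p = 0.033). The deposited table places BAK1 on chromosome 12, 23915173 to 23922016, minus strand; no source used here names its genome build.

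The call for BAK1 was lost when any 1 library other than high cuff pressure replicate 1 was left out, while the size of its difference moved little. Its log2 fold change stayed between 1.10 and 1.38 when each library was left out in turn. Leaving out high cuff pressure replicate 1 kept the call (edgeR adjusted p = 0.013), in a fit where 2623 of 14064 genes passed. Leaving out replicate 2 or 3 of that group ended it (edgeR adjusted p = 0.088 and 0.058), as did dropping control replicate 1, 2 or 3 (edgeR adjusted p = 0.076, 0.13 and 0.15). Calls over the whole table thinned in the same fits: 4 genes passed when high cuff pressure replicate 2 was dropped, and 0 passed with edgeR when control replicate 2 or 3 was dropped, where 2691 and 2496 genes had an unadjusted p under 0.05. In the complete data, 725 passed. With total counts only, the log2 fold change of BAK1 was 0.84 and it passed (edgeR adjusted p = 0.045).

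The genes whose profile over the 6 libraries lay nearest to that of BAK1 were PFN1, which encodes the actin-binding protein profilin, and NOP56, which encodes a nucleolar protein. After each gene was centred on its own mean, log2 CPM differed from BAK1 by a root mean square of 0.01 for PFN1 and 0.07 for NOP56. PFN1 had 343, 512 and 452 CPM with high cuff pressure, against 206, 180 and 171 CPM in controls.

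BAX, the effector that moves from the cytosol to the mitochondria, had 39.1, 62.8 and 51.7 CPM in high cuff pressure replicates 1, 2 and 3, against 33.2, 21.8 and 27.9 CPM in control replicates 1, 2 and 3. The groups did not overlap, but high cuff pressure replicate 1 and control replicate 1 were near each other. BAX averaged 51.2 ± 11.9 CPM with high cuff pressure and 27.7 ± 5.72 CPM in controls (SD, n = 3 each), a log2 fold change of 0.89 ± 0.27 SE (95% interval 0.27 to 1.51), and did not pass (edgeR adjusted p = 0.083). DESeq2 called it (adjusted p = 0.030), as did edgeR without high cuff pressure replicate 1 (adjusted p = 0.035, log2 fold change 1.05). Over the whole table, 2631 of 13724 tested genes passed with DESeq2. In the fit without that library 2623 of 14064 passed, beside 725 with edgeR on all 6 libraries. With total counts only its log2 fold change was 0.50. BAX lies on the scaffold GL019028, 90719 to 94100, minus strand.

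The BAX row has a short gene model of 601 bp, and short genes as a class moved in some libraries. Genes with models up to 1243 bp had a median deviation of 0.29 in high cuff pressure replicate 2 and -0.18 in control replicate 2, on the log2 CPM scale about each gene's mean. These are the libraries in which BAX was highest and lowest. With a trend over gene length removed from each library, BAX had a log2 fold change of 0.67 (edgeR adjusted p = 0.096), and BAK1, with a model of 1947 bp, had 1.27 (edgeR adjusted p = 0.028).

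BH3-only genes encode the sensors that start the mitochondrial pathway. BID is the one that CASP8 cuts. BID had 47.4, 36.0 and 26.4 CPM in high cuff pressure replicates 1, 2 and 3, against 50.8, 34.2 and 52.3 CPM in control replicates 1, 2 and 3. The groups overlapped, with control replicate 2 inside the high cuff pressure range. BID averaged 36.6 ± 10.5 CPM with high cuff pressure and 45.8 ± 10.003 CPM in controls, a log2 fold change of -0.32 ± 0.29 SE (95% interval -0.99 to 0.35; edgeR adjusted p = 0.48). With total counts only it was -0.71 and did not pass either (edgeR adjusted p = 0.12).

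BID, at 157684 to 193808 on the minus strand, lies beside BCL2L13 on the scaffold GL018809, with 4249 bp between their models and no other row between them. BCL2L13 is a mitochondrial BCL2 relative, and BID runs on the opposite strand. BCL2L13 had 23.0, 17.3 and 24.9 CPM with high cuff pressure, against 6.75, 9.65 and 5.98 CPM in controls, so its groups were well apart where those of BID were not.

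BCL2L11 (chromosome 2, 96189346 to 96233501, plus strand) encodes BIM, a BH3-only protein that binds all the main pro-survival members. It had 4.04, 2.59 and 3.64 CPM in high cuff pressure replicates 1, 2 and 3, against 2.31, 3.54 and 3.21 CPM in control replicates 1, 2 and 3. The ranges lay over each other almost fully. BCL2L11 had a log2 fold change of 0.18 ± 0.37 SE (95% interval -0.68 to 1.04; edgeR adjusted p = 0.78), and the sign turned to -0.22 with total counts only. Its raw counts ran from 22 to 55 per library.

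BBC3 encodes PUMA and PMAIP1 encodes NOXA, BH3-only proteins that bind pro-survival members. BBC3 lies on the scaffold GL018835, 532214 to 535975, minus strand, and PMAIP1 on chromosome 9, 100192379 to 100195634, plus strand. BBC3 had 4, 8 and 4 counts in high cuff pressure replicates 1, 2 and 3, against 2, 3 and 6 counts in control replicates 1, 2 and 3. PMAIP1 had 1, 1 and 3 counts with high cuff pressure, against 2, 0 and 0 counts in controls. Both genes fell below the filter on low counts and were not tested. Scaled by library, the ratio of summed counts was 1.87 for BBC3 (16 against 11 counts, 95% Poisson interval 0.82 to 4.46) and 3.22 for PMAIP1 (5 against 2 counts, 0.53 to 33.8). These intervals cover counting error only, and both include a ratio of 1. The gene models are short, at 549 bp for BBC3 and 165 bp for PMAIP1. A count of 3 corresponds to between 0.19 and 0.35 CPM in a library.

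FAS (chromosome 18, 36905971 to 36936701, plus strand) encodes the death receptor CD95. It had 14.2, 12.7 and 4.39 CPM in high cuff pressure replicates 1, 2 and 3, against 9.40, 6.24 and 13.8 CPM in control replicates 1, 2 and 3. High cuff pressure replicate 1 was the highest of all libraries and high cuff pressure replicate 3 the lowest. FAS averaged 10.4 ± 5.28 CPM with high cuff pressure and 9.81 ± 3.78 CPM in controls, a log2 fold change of 0.09 ± 0.49 SE (95% interval -1.05 to 1.22; edgeR adjusted p = 0.93). The value was 0.46 when high cuff pressure replicate 3 was dropped and -0.20 when high cuff pressure replicate 1 was dropped, and it was -0.33 with total counts only. FASLG, the ligand of FAS, had 1, 2 and 7 counts with high cuff pressure, against 5, 6 and 7 counts in controls, and was below the filter.

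CASP8 (chromosome 7, 142060222 to 142073386, plus strand) is the protease that death receptors activate. It had 8.77, 2.59 and 2.95 CPM in high cuff pressure replicates 1, 2 and 3, against 2.73, 3.02 and 5.47 CPM in control replicates 1, 2 and 3. High cuff pressure replicate 1 alone lifted its group, and the other 5 libraries lay between 2.59 and 5.47 CPM. The log2 fold change was 0.35 ± 0.56 SE (95% interval -0.94 to 1.64; edgeR adjusted p = 0.71). It was -0.42 when high cuff pressure replicate 1 was dropped and 0.72 when control replicate 3 was dropped, and it was -0.047 with total counts only. CASP10, a related initiator caspase on the same stretch of chromosome 7, was also highest in high cuff pressure replicate 1, at 18.1 CPM against 3.88 and 8.56 CPM in high cuff pressure replicates 2 and 3; controls had 4.87, 8.69 and 6.997 CPM. Its log2 fold change was 0.57 ± 0.54 SE.

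Leukocyte markers differed between the libraries in which FAS and CASP8 varied. The 7 neutrophil markers with a row (of 10 listed) summed to 6790, 3607 and 1481 CPM in high cuff pressure replicates 1, 2 and 3, against 74.5, 6.82 and 422 CPM in control replicates 1, 2 and 3, and 5 of the 6 tested were higher. MPO was at 0 counts in all but control replicate 3. S100A9 was the tested marker that did not pass (edgeR adjusted p = 0.12). It had 4294, 2272 and 846 CPM with high cuff pressure, against 63.1, 2.96 and 401 CPM in controls. Control replicate 3, with the highest control sum, had the lowest CSF3R, CXCR1 and FPR1 of all libraries, at 0.44, 0.07 and 0.07 CPM. The 8 monocyte and macrophage markers summed to 201 to 220 CPM with high cuff pressure and 62.0 to 126 CPM in controls, and 4 of the 8 were higher. Log2 fold changes were positive for 5 of the 8 and negative for C1QA, C1QB and C1QC (-1.05, -0.93 and -0.80), without a call. High cuff pressure replicate 1 also had the lowest smooth muscle sum, 272 CPM. The part of these cells in the values of BAK1, BAX, FAS and CASP8 was not tested.

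Of the other marker lists, called genes were 0 of 5 tested for T cells, 2 lower of 5 for B and plasma cells, 0 of 7 for airway epithelium and 0 of 5 for smooth muscle. Endothelium had 1 higher of 5 and fibroblasts 1 lower of 5, and none of the 5 cartilage markers passed the filter, with sums of at most 8.18 CPM.

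**Figure D2:**
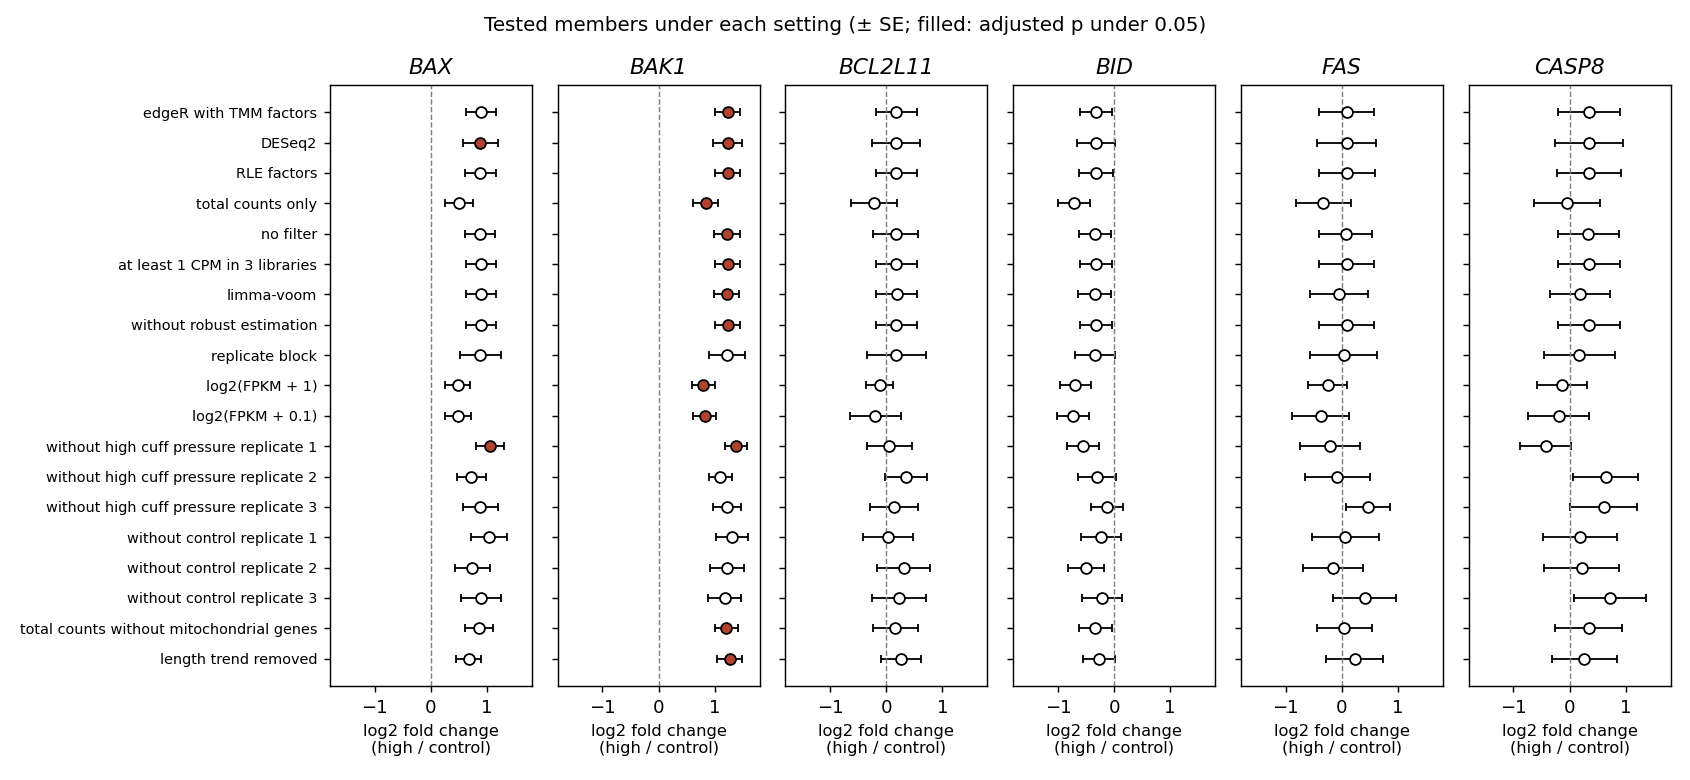
Each panel plots the log2 fold change (high cuff pressure over control) of 1 tested gene, ± SE, under each setting, with filled points for an adjusted p under 0.05. BAK1 stays between 0.80 and 1.38 and BID below 0 in all settings, while BCL2L11, FAS and CASP8 lie on both sides of 0.

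Per gene length, BAX was the most abundant of the 8 in both groups, at 73.8 ± 13.9 FPKM with high cuff pressure and 52.3 ± 7.19 FPKM in controls (SD, n = 3 each). BAK1 stood at 37.4 ± 5.91 FPKM with high cuff pressure and 20.9 ± 0.73 FPKM in controls, and BID at 14.5 ± 4.25 FPKM and 23.7 ± 4.82 FPKM. BAK1 was thus clear of BID with high cuff pressure, while the ranges of BAK1 and BID overlapped in controls. CASP8 followed at 4.57 ± 3.42 FPKM with high cuff pressure and 4.72 ± 2.13 FPKM in controls, then FAS at 2.15 ± 1.07 and 2.69 ± 1.12 FPKM, and the ranges of these neighbours overlapped in both groups. BCL2L11 stood at 1.05 ± 0.28 FPKM with high cuff pressure and 1.23 ± 0.35 FPKM in controls. BBC3 and PMAIP1 were lowest, under 1.39 FPKM in all 6 libraries, and the ranges of BBC3, PMAIP1 and BCL2L11 overlapped in both groups. BCL2L11 overlapped FAS with high cuff pressure but not in controls, while BAX and BAK1, and likewise BID and CASP8, were apart in both.

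The 7 lists of other apoptosis genes reported here held 50 entries, of which 35 had a row and 31 were tested. Among these 31 genes, 1 was called higher and 1 lower, against 5.28% of all tested genes called. Separated groups were found for 10, 5 upward and 5 downward, against 37.3% of all tested genes, 18.6% upward and 18.7% downward. The median of the 31 log2 fold changes was 0.02. An unadjusted p under 0.05 was found for 10 of the 31, against 29.3% of all tested genes, the share to set beside such counts for each list. Limma-voom called the same 1 and 1. DESeq2, which called 19.2% of all tested genes, called 5 of the 31 higher and 3 lower. No necroptosis gene had a row by symbol, nor did CYCS, BAD, XIAP or FADD, and these were not analysed here.

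Of 4 pro-survival genes tested, 0 were called with edgeR in either direction, 1 had an unadjusted p under 0.05 and the median log2 fold change was -0.20. DESeq2 called 1 lower, BCL2. MCL1, a short-lived guardian that binds BAK1, averaged 68.9 ± 10.4 CPM with high cuff pressure and 83.4 ± 10.9 CPM in controls (log2 fold change -0.27 ± 0.21 SE). BCL2L1, which encodes BCL-XL, averaged 67.2 ± 19.1 CPM with high cuff pressure and 61.1 ± 7.06 CPM in controls, and its log2 fold change of 0.14 became -0.24 with total counts only. BCL2, named after its values were seen, had 2.56, 1.41 and 4.55 CPM with high cuff pressure, against 7.09, 11.6 and 6.92 CPM in controls. The groups of BCL2 did not overlap, and its log2 fold change of -1.57 ± 0.48 SE did not pass (edgeR adjusted p = 0.085), although it did with total counts only (edgeR adjusted p = 0.049). With total counts only, 1241 genes of the whole table were called lower and 390 higher.

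Of 7 other BCL2 relatives tested, BCL2L13 rose and 0 fell with edgeR; DESeq2 called BCL2L13 higher and BNIP3L lower. Its log2 fold change was 1.54 ± 0.30 SE (edgeR adjusted p = 0.035). It was not called with total counts only (1.15, edgeR adjusted p = 0.061). With high cuff pressure replicate 1 dropped it passed (edgeR adjusted p = 0.028), and with any other library dropped it did not (0.072 to 0.16). BNIP3L, a mitophagy receptor named after its values were seen, had 37.2, 27.9 and 24.7 CPM with high cuff pressure, against 51.4, 46.3 and 57.2 CPM in controls, and did not pass with TMM factors (log2 fold change -0.79 ± 0.24 SE, edgeR adjusted p = 0.082). It passed with DESeq2 (adjusted p = 0.030), with total counts only (-1.18, edgeR adjusted p = 0.033) and on both log2 FPKM scales. The median log2 fold change of all genes was -0.40 with total counts only and -0.35 and -0.41 on the FPKM scales.

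Of 6 caspases and apoptosome genes tested, 0 were called with edgeR, and 1 had an unadjusted p under 0.05; DESeq2 called that 1, CASP9. CASP6, an executioner caspase, had 95.9, 100.4 and 65.9 CPM with high cuff pressure, against 74.9, 77.1 and 82.7 CPM in controls. The groups of CASP6 overlapped, and its log2 fold change of 0.16 ± 0.22 SE became -0.25 with total counts only. CASP9, the initiator caspase of the apoptosome, was named after its values were seen. CASP9 had 16.0, 83.1 and 27.3 CPM with high cuff pressure, against 12.7, 12.4 and 12.2 CPM in controls. The groups did not overlap, high cuff pressure replicate 2 stood far above the rest, and the gene did not pass (log2 fold change 1.75 ± 0.56 SE, edgeR adjusted p = 0.094).

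Of the 4 inhibitors of apoptosis and their antagonists, 0 were called with edgeR, 2 had an unadjusted p under 0.05 and DESeq2 called 1 of these, DIABLO. The other was BIRC2, an inhibitor named after its values were seen, whose groups were separated downward (log2 fold change -0.70 ± 0.25 SE, edgeR adjusted p = 0.11) and which passed with total counts only (edgeR adjusted p = 0.036). In that setting the median log2 fold change of all genes was -0.40. BIRC3, an NF-kB-inducible inhibitor, ranged from 59.7 to 161 CPM with high cuff pressure and from 55.0 to 137 CPM in controls. DIABLO, which encodes the mitochondrial antagonist SMAC, had 76.4, 113 and 57.8 CPM with high cuff pressure, against 47.9, 36.9 and 42.5 CPM in controls. The groups of DIABLO were separated without a call (log2 fold change 0.96 ± 0.28 SE, edgeR adjusted p = 0.080).

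Of 6 death ligands, receptors and adaptors tested, TNFSF10 fell and 0 rose with edgeR; 4 had an unadjusted p under 0.05. DESeq2 also called TNFRSF1A, a TNF receptor, and its adaptor TRADD higher, and these were named after their values were seen (log2 fold changes 0.86 and 1.07; edgeR adjusted p = 0.063 and 0.096). TNFSF10 encodes TRAIL, a death ligand of the TNF family. It had 78.9, 48.4 and 18.3 CPM in high cuff pressure replicates 1, 2 and 3, against 192, 182 and 238 CPM in control replicates 1, 2 and 3. Each high cuff pressure library had less than any control. Its log2 fold change was -2.07 ± 0.48 SE, just past the threshold (edgeR adjusted p = 0.049; 0.051 with RLE factors). It stayed past the threshold when high cuff pressure replicate 1 or 3 was dropped (edgeR adjusted p = 0.017 and 0.045), and not when any of the other 4 libraries was dropped (0.0995 to 0.18). CFLAR, which encodes the CASP8 inhibitor c-FLIP and lies near CASP10 on chromosome 7, was named after its values were seen. CFLAR had 57.3, 34.6 and 36.4 CPM with high cuff pressure, against 59.4, 78.8 and 84.3 CPM in controls, and did not pass (log2 fold change -0.79 ± 0.27 SE, edgeR adjusted p = 0.11). It passed with total counts only (edgeR adjusted p = 0.045), where the median log2 fold change of all genes was -0.40.

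Among 4 stress factors that act upstream of BH3-only genes, 0 were called with edgeR or DESeq2 and 0 had an unadjusted p under 0.05, and 3 of the 4 values were negative. FOXO3, a transcription factor known to induce BCL2L11 and BBC3, had -0.56 ± 0.33 SE, and ATF3 had -1.36 ± 0.77 SE, with 178 CPM in control replicate 1 and 18.2 to 33.9 CPM in the other 5 libraries.

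**Figure D3:**
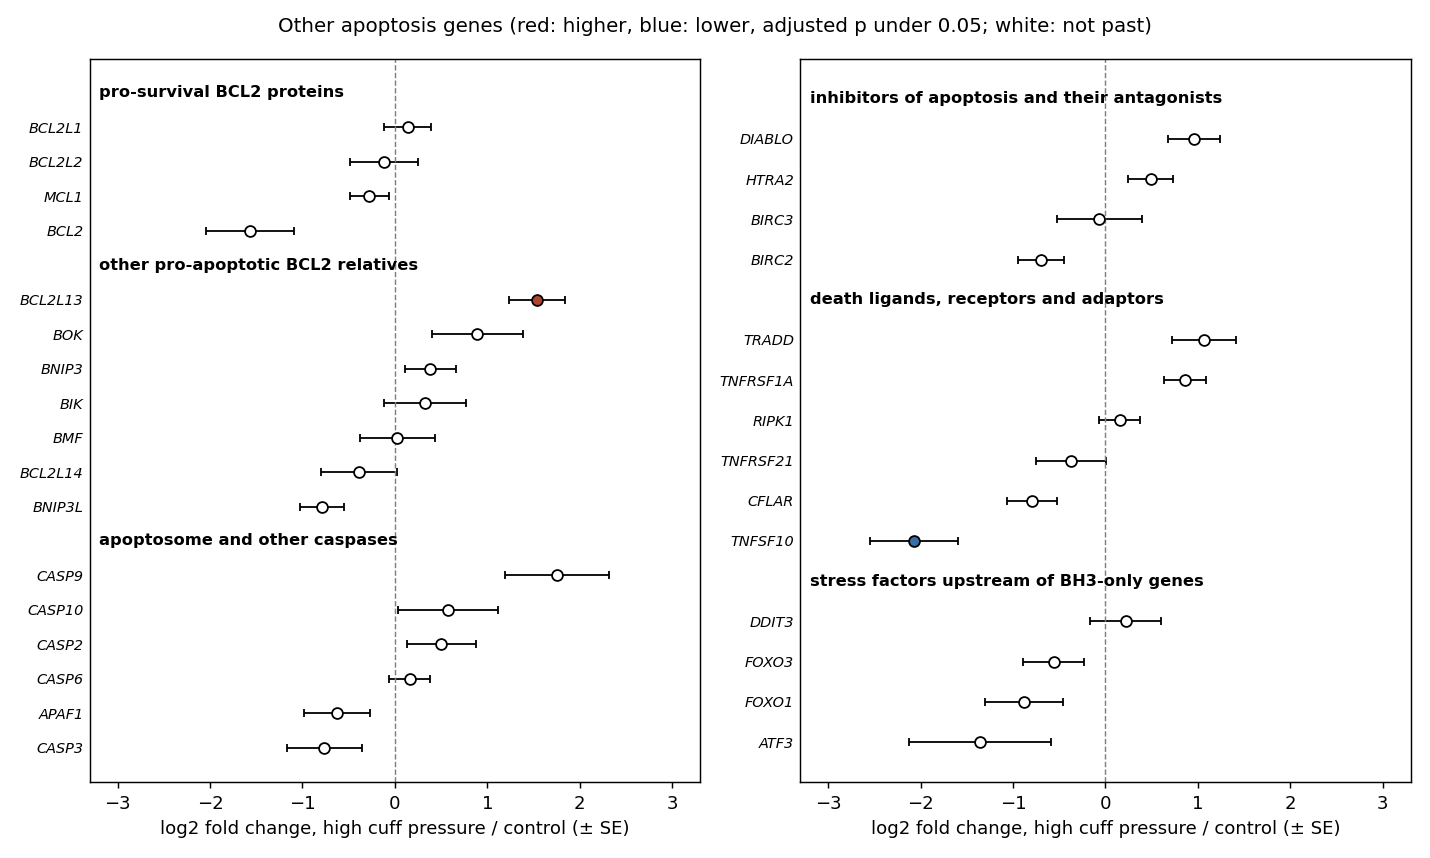
Each point is the log2 fold change of 1 gene (high cuff pressure over control), ± SE, grouped by list; red marks a gene called higher, blue a gene called lower and white a gene that did not pass. BCL2L13 at 1.54 and TNFSF10 at -2.07 are the called genes among 31.

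Ratios of FPKM between genes of the same library do not depend on how libraries are scaled, but a trend over gene length does not cancel in them. They were chosen after the values were seen, and 11 were examined. BAK1 over BCL2L1 was 0.75, 1.29 and 0.66 in high cuff pressure replicates 1, 2 and 3, against 0.44, 0.43 and 0.33 in control replicates 1, 2 and 3. The groups did not overlap; among all tested genes, 9.65% had a ratio to BCL2L1 that was separated upward. BAK1 over MCL1 was 0.64, 1.28 and 0.99 with high cuff pressure, against 0.42, 0.31 and 0.28 in controls, and 20.5% of genes were separated upward in this ratio. With 3 libraries a group, an exact two-sided permutation test cannot go below p = 0.10, so none is given for single ratios.

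BAX over BCL2L1 was 1.43, 2.64 and 1.28 with high cuff pressure, against 1.22, 0.88 and 0.90 in controls, so high cuff pressure replicate 3 and control replicate 1 were close. BAX over MCL1 likewise came near to overlap, at 1.22 in high cuff pressure replicate 1 and 1.17 in control replicate 1. BAX over BCL2 was 90.2, 263 and 67.1 with high cuff pressure, against 27.7, 11.1 and 23.8 in controls, but 63.6% of all tested genes were separated upward when divided by BCL2. The model of BAX (601 bp) is shorter than those of BCL2L1 (1324 bp), MCL1 (1498 bp) and BCL2 (3549 bp). Its ratios to them were highest in high cuff pressure replicate 2 and lowest in control replicate 2, and the part of gene length in this was not tested. The ratios of BAK1 (1947 bp) to the same genes were also highest in high cuff pressure replicate 2. Those to BCL2L1 and MCL1 were lowest in control replicate 3, and that to BCL2 in control replicate 2. BAX over BAK1 was 1.90, 2.05 and 1.95 with high cuff pressure, against 2.75, 2.02 and 2.75 in controls, and these groups overlapped.

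BAK1 over BID was 1.59, 3.12 and 3.68 with high cuff pressure, against 0.87, 1.16 and 0.71 in controls, and the groups did not overlap (16.7% of genes were separated upward against BID). CASP8 over CFLAR was 0.26, 0.13 and 0.14 with high cuff pressure, against 0.08, 0.07 and 0.11 in controls. This ratio too was separated, as it was for 38.6% of genes divided by CFLAR. FAS over CFLAR was 0.09, 0.14 and 0.05 with high cuff pressure, against 0.06, 0.03 and 0.06 in controls, and these groups overlapped.

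**Figure D4:**
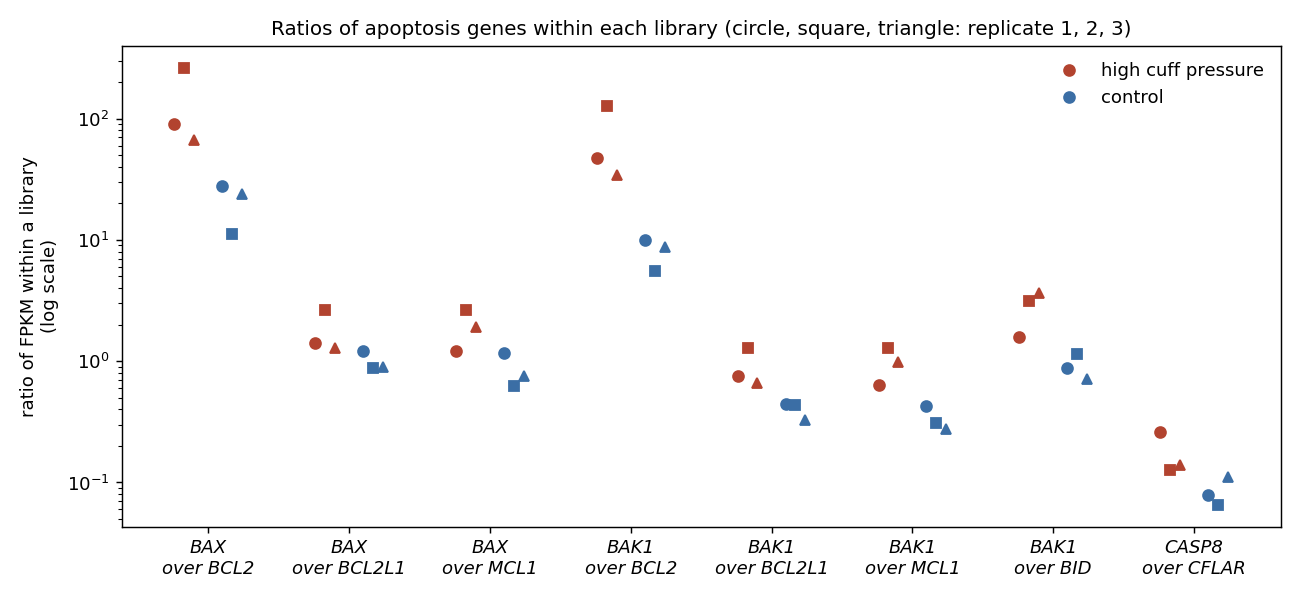
Ratios of FPKM between 2 genes within each library are plotted on a log axis, with the high cuff pressure libraries in red left of the control libraries in blue. BAK1 over BCL2L1 lies between 0.66 and 1.29 in the red points and between 0.33 and 0.44 in the blue points.

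In the authors' deposited table, BAK1 had mean levels of 37.4 FPKM with high cuff pressure and 20.9 FPKM in controls and a q-value of 0.0083. BAX had a q-value of 0.097 in the authors' deposited table, and the other 6 had q-values of at least 0.56. The direction column of the authors' deposited table marks none of the 8 genes as up or down. BAK1 has no mark despite its q-value, so a q-value under 0.05 alone does not make a called gene there. In the authors' deposited enrichment table, the KEGG pathway Apoptosis had 6 called genes of 104, 4 up and 2 down, with a rich factor of 0.78 and a p-value of 1. None of the 8 genes was among those 6.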

How the data were processed

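Per the labels' protocols, polyA RNA of tracheal mucosa was read on a DNBSEQ-T7 sequencer. HISAT2 2.0.4, StringTie 1.3.3b and edgeR stand in the submitters' processing notes, with no role. The genome build, annotation, strand setting and counting rules are not given in the sources read. The deposited table gives raw counts per gene and, per the file headers, the authors' FPKM, which equal count over model length and library total. A deposited table gives the authors' group means in FPKM with p-values and q-values, and the deposited KEGG table gives p-values and, as a ratio, the authors' rich factor.

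Groups and replicate numbers follow the library names in the labels; control replicate 3 is titled S4, and no sample is titled S3. Counts were analysed in R 4.3.3 with edgeR 4.0.16: filterByExpr left 13724 genes, followed by TMM factors, robust glmQLFit and glmQLFTest of high cuff pressure over control, with Benjamini-Hochberg adjustment over all tested genes and a threshold of 0.05. The standard error is the log2 fold change over the square root of F, and intervals use its t distribution. Log2 CPM used a prior count of 2. Alternatives used DESeq2 1.42.0 and limma 3.58.1, other scalings, filters and units, a replicate block and leaving out each library. Scaling by total counts without the 37 mitochondrial genes and removal of a length trend (lowess, span 0.5) were chosen after seeing the data. The tests were tested on simulated data, drawn without the mitochondrial and gene length shifts seen in these libraries. Replicates of a group differed by more than counting noise in every pair (chi-square divided by its degrees of freedom: 44.8 to 111).

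The 8 genes and all lists were chosen with earlier results of these data known. Named were the 8 genes, the called genes of each apoptosis list or, where none was called, its 2 most abundant, and for each of the 8 that was called the 2 genes nearest in profile. Genes outside this rule are said to be named after their values were seen, or are given as neighbours, ligands or markers. Some listed genes are not reported here, and the list counts leave them out. With them, 41 list genes were tested, with a median log2 fold change of -0.07, 7 separated upward and 8 downward.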

Additional observations from a re-analysis of the deposited data

How the results depend on the processing

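Of the 13724 genes tested, 725 passed with edgeR and TMM factors (503 higher, 222 lower). The count was 2631 with DESeq2, 1631 with total counts only (390 higher, 1241 lower), 2182 on log2(FPKM + 1) and 1851 on log2(FPKM + 0.1), and it ranged from 0 to 2623 when each library was left out. Of the 8 genes, 1 passed; 2 passed with DESeq2 (BAX and BAK1), and 0 to 2 when each library was left out. With the replicate number as a block, 244 genes and 0 of the 8 passed, and BAK1 had an adjusted p of 0.10. Deviations of same-numbered libraries correlated at -0.28, -0.20 and -0.23, and no library correlated best with its own number, so the numbers were not taken to pair the libraries.

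BCL2L11 had -0.22 with total counts only, -0.11 on log2(FPKM + 1) and -0.20 on log2(FPKM + 0.1). FAS had -0.33, -0.25 and -0.38 in these settings and -0.052 with limma-voom, and CASP8 had -0.047, -0.14 and -0.20. When each library was left out, FAS ranged from -0.20 to 0.46 and CASP8 from -0.42 to 0.72. The total-count and FPKM settings scale by totals that include mitochondrial counts, and the leave-one-out fits hold fewer libraries; the cause of these sign changes was not tested further. Without mitochondrial genes in the totals, the 6 tested genes kept their signs and BAK1 passed. BBC3 and PMAIP1 had at most 8 counts a library and fell below the filter, and the cause of these low counts was not tested.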
